A study of Mus musculus with 188 samples.

Results

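The nuclear genes for subunits of the mitochondrial respiratory chain and the ATP synthase were followed through the aorta of a large panel of mouse strains. A gene was taken where its single annotated symbol starts with Nduf, Sdh, Uqcr, Cox4, Cox5, Cox6, Cox7, Cox8 or Atp5. Uqcr10, Cox7a1 and Cox8b were left out by the rule. This gave 79 of 11725 genes with a symbol on the array, measured by 127 of 22327 probe sets, and each gene is represented by its brightest probe set. The rule goes by symbol and sets no threshold on a measured value. Complex I contributed 34 genes and 4 Ndufaf assembly factors, complex II 4, complex III 6, complex IV 14 and the ATP synthase 17. Ndufs5-ps is annotated as a pseudogene, Ndufa4 is named for complex I but its protein is now counted with complex IV, and Ndufab1 is also an acyl carrier protein.

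The series profiled whole aorta from male mice aged 16 weeks on chow, all labelled wild-type and untreated, on 188 Affymetrix HT_MG-430A arrays. The 94 strains were 28 classical inbred strains (55 arrays) and 3 families of recombinant inbred strains: 28 AXB/BXA strains from A/J and C57BL/6J (59 arrays), 28 BXD strains from C57BL/6J and DBA/2J (53 arrays), and 10 BXH strains from C57BL/6J and C3H/HeJ (21 arrays). A recombinant inbred strain is a homozygous mosaic of its parents' genomes. BXD24/TyJ-Cep290<rd16>/J and BXD29-Tlr4<lps-2J>/J also carry the alleles written in their names. Of the strains, 79 had 2 arrays, 9 had 1, and 3 each had 3 and 4. The labels do not say whether the arrays of a strain were separate animals, so p-values measure the spread between arrays, which may be partly technical. The small number of arrays per strain limits the precision of every strain mean.

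Oxidative phosphorylation passes electrons from NADH (complex I) and succinate (complex II) through complex III to complex IV, which reduces oxygen, and the ATP synthase uses the resulting proton gradient. The nuclear genome encodes most subunits and mitochondrial DNA the rest. The vessel wall itself is glycolytic for much of its energy, whereas brown adipose tissue, heart and skeletal muscle are packed with mitochondria, and several complex IV and ATP synthase subunits come from separate genes in muscle and in other tissues.

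The tissue label was checked against marker genes. The smooth muscle actin Acta2 read 11.05 to 13.13 over the arrays and the smooth muscle myosin Myh11 6.94 to 10.42, in RMA log2 units, which are used for all levels. Of the measured brown fat genes, Ucp1 read 9.75 to 13.18 and Cidea 11.71 to 12.75 over the arrays, while Elovl3 ran from 4.23 to 11.33 and Dio2 from 3.63 to 9.81. Striated muscle varied far more, with creatine kinase Ckm between 4.20 and 12.92. A score for a cell type is the mean of its marker genes after each was centred over arrays. On the thymocyte score 36 arrays stood above 1 and on the squamous epithelium score 37, and 68 arrays stood above 1 on either and are left out in the checks named below.

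A set of 3 genes encodes the same mature protein, subunit c of the ATP synthase rotor, and its members behaved differently across these arrays, so the 250 bases before their start sites are shown (RefSeq, GRCm38.p6, all on the minus strand, written 5′ to 3′ in the direction of transcription). Capitals mark matches, on either strand, to the NRF1 motif (GCGCA and GCGC with any base between), the ETS motif CCGGAAG, the CCAAT motif and the TATA motif TATAAA. The windows are chr11:96075632-96075881 for Atp5g1, chr15:102671048-102671297 for Atp5g2 and chr2:73911327-73911576 for Atp5g3.
Atp5g1: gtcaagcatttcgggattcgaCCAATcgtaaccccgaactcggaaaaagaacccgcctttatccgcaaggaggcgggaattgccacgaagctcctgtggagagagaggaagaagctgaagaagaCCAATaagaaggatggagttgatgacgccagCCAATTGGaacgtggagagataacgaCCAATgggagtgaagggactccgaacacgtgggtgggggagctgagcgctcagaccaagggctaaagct
Atp5g2: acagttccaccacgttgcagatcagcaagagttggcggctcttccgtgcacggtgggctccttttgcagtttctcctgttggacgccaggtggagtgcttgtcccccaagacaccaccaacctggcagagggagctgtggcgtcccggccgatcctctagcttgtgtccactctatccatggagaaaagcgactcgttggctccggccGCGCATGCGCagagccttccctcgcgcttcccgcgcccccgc
Atp5g3: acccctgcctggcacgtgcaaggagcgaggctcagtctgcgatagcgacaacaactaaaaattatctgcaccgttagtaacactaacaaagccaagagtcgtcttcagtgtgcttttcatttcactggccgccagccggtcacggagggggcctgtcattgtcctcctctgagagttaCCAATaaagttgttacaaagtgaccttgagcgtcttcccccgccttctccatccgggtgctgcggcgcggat
Atp5g1 held 5 CCAAT matches, of which a pair overlaps, and none of the other marked motifs. Atp5g2 held 1 NRF1 match and no CCAAT match, and Atp5g3 held 1 CCAAT match and no NRF1 match. The GC content was 62.8% for Atp5g2, 53.6% for Atp5g1 and 54.0% for Atp5g3.

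The promoter table held windows for 64 of the 79 genes, 69 windows in all. The NRF1 motif, bound by a factor known to drive many nuclear mitochondrial genes, was in 14 of these windows (13 genes), or 20.3%, and in 3.74% of all 32851 windows of the table. The ETS motif was in 11 windows, or 15.9%, against 6.91% of all. CCAAT was in 27 windows (39.1% against 33.8%) and TATAAA in 7 (10.1% against 12.4%). The windows had a median GC content of 57.6%, and all windows 52.4%. A match describes letters only, and the shares carry no test.

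Nearly all of the genes gave a strong signal. Of the 79, 76 had a mean above the median of all probe sets, 4.77. The 3 exceptions, Cox4i2, Cox8c and Cox7c, lay in complex IV. Cox4i2, the lung-enriched form of subunit 4, averaged 3.31. That is below 3.55, the interpolated 90th percentile of the mean levels of 13 genes not expected in aorta. Cox8c, a testis form, averaged 3.82. The Cox7c probe set averaged 3.92, and no statement on Cox7c is made from it, since it was the gene's only probe set. Cox6b2, another testis form, averaged 4.79 and Sdhd, a membrane anchor of complex II, 6.05. In complex I the means ran from 9.99 to 12.06, in complex III from 10.33 to 11.84 and in the ATP synthase from 9.62 to 12.47, while the 4 assembly factors read 6.52 to 7.69.

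Over arrays, most genes moved little. The range of the strain means had a median of 1.01, against 1.42 for all probe sets. It was narrowest for Cox6a1, the general form of a regulatory subunit of complex IV, whose strain means ran over 0.38. It was widest for Cox6a2, the heart and muscle form of the same subunit, whose means ran over 3.92, from 7.61 in SWR/J (6.55 and 8.68) to 11.53 in BXH2/TyJ (11.51 and 11.55). Atp5g1 had the same extremes, with 7.94 in SWR/J (7.09 and 8.79) and 11.17 in BXH2/TyJ (11.09 and 11.24).

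Arrays differed in the level of the genes as a whole. The mean over all 79 centred genes ran from -0.58 to 0.25, with a median of 0.04. The lowest were replicate 2 of BXA7/PgnJ at -0.58, replicate 1 of C57L/J at -0.54, replicate 1 of BXH9/TyJ at -0.53 and both RIIIS/J arrays at -0.52 and -0.50. All 5 had a thymocyte score between 3.65 and 5.04, where the median array had -0.78, and a brown adipocyte score between -1.81 and -0.56. In whole tissue, fewer cells of a type and less RNA per cell cannot be told apart.

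Strain was tested with limma's moderated F test over 84 strains with at least 2 arrays (177 arrays). Within most strains the numbers that title the arrays are adjacent. Strain and the order of the arrays therefore cannot be told apart in the tests between strains. Of the 79 genes, 39 passed at an adjusted p below 0.05. That is 49.4%, where 46.5% of all probe sets passed and 70.0% of those above the median level, which most of these genes are. How much of a gene's variance lies among strains, its intraclass correlation (ICC), had a median of 0.22, against 0.18 for all probe sets and 0.25 for those above the median level. The standard deviation (SD) among strains had a median of 0.12 and the SD within a strain 0.22.

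By complex, the counts were as follows, with no test between complexes. Complex I had 22 of 34 genes called and its assembly factors 4 of 4. Complex III had 4 of 6. Complex II had 1 of 4, Sdhc, a membrane anchor chosen after its values were seen. Complex IV had 3 of 14 and the ATP synthase 5 of 17. Complex IV genes had a median SD among strains of 0.05 and within strains of 0.16, and complex I genes had 0.13 and 0.22.

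**Figure D1:**
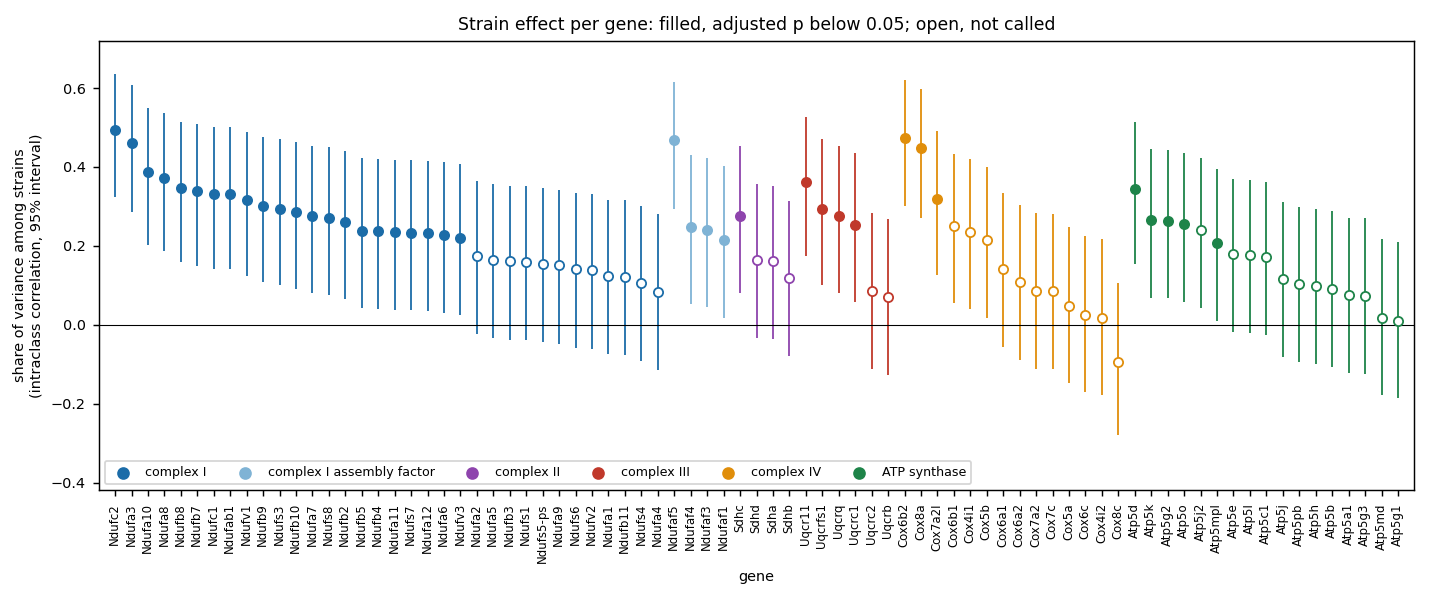
Share of variance among strains (ICC, with 95% interval) for each gene, by complex, over 84 strains and 177 arrays; filled points passed limma's F test at an adjusted p below 0.05. The highest is Ndufc2 at 0.49 and the lowest Cox8c at -0.09.

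Ndufc2, an accessory subunit of the complex I membrane arm, had the largest ICC. Its arrays ran from 9.22 over a median of 10.45 to 11.12. The 3 C57BL/6J arrays read 10.76, 10.99 and 11.01, the highest strain mean, and the 2 BXA7/PgnJ arrays 9.22 and 10.10, the lowest. Its ICC was 0.49 (95% interval 0.32 to 0.64, adjusted p = 2.94e-06). Ndufa3, another accessory subunit, was also highest in C57BL/6J (11.81, 12.09 and 12.25) and lowest in RIIIS/J (11.20 and 11.22). Its ICC was 0.46 (adjusted p = 3.37e-05).

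Ndufaf5, an assembly factor that modifies the core subunit NDUFS7, ran from 5.02 over 6.54 to 8.08. C57L/J was lowest (5.02 and 5.74) and BXA16/PgnJ highest (6.95, 7.55 and 8.08). Its ICC was 0.47 (adjusted p = 6.04e-06). Of the other complex I genes among the 12 largest, Ndufa10 had an ICC of 0.39, Ndufa8 0.37, Ndufb8 0.35, Ndufb7 0.34 and Ndufc1 0.33, with adjusted p values from 0.000548 to 0.00254. A dimmer Ndufc1 probe set (mean 10.18) had an ICC of 0.51 (adjusted p = 7.21e-07 in the F test). It correlated with the brightest at only 0.52 over strain means.

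In complex IV, Cox6b2 had an ICC of 0.47 (adjusted p = 4.26e-06). Its lowest strain was BXD13/TyJ (3.93 and 4.09) and its highest BTBR T<+> tf/J (6.21 and 6.69), so only part of the panel stood clear of the dim range. Cox8a, the general form of the smallest subunit, was lowest in RIIIS/J (10.56 and 10.82) and highest in BXA8/PgnJ (11.62 and 11.77). Its ICC was 0.45 (adjusted p = 4.44e-05). Cox7a2l, a factor for joining complexes III and IV into supercomplexes, had an ICC of 0.32 (adjusted p = 0.00567), and its 2 dimmer probe sets had 0.43 and 0.34.

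Uqcr11, a small subunit of complex III, was again lowest in RIIIS/J (10.41 and 10.45) and highest in C57BL/6J (11.45, 11.74 and 11.94), with an ICC of 0.36 (adjusted p = 0.000996). Atp5d, the delta subunit in the stalk of the ATP synthase, was lowest in RIIIS/J (10.73 and 10.79) and highest in BTBR T<+> tf/J (11.94 and 12.10). Its ICC was 0.34 (adjusted p = 0.00167). Both RIIIS/J arrays were among those with the highest thymocyte scores (4.78 and 5.04). Without RIIIS/J, 24 genes passed in place of 39.

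At the other end, Cox8c had an ICC of -0.09, Atp5g1 0.01, Atp5md 0.02 and Cox4i2 0.02, and none passed (adjusted p from 0.509 to 0.879). For Atp5g1, whose strain means ran over 3.23, the SD within strains was 0.79 and that among strains 0.08. Cox6a2 was similar, with 0.95 within and 0.33 among strains and an ICC of 0.11 (adjusted p = 0.176). The other members of isoform pairs that did not pass were Cox6a1 (ICC 0.14), Cox6b1 (0.25), Cox4i1 (0.24), Cox7a2 (0.09) and Ndufa4 (0.08). Dimmer probe sets of Cox6a1 and Cox6b1 did pass the F test, with ICCs of 0.30 and 0.26 (adjusted p = 0.00621 and 0.0395). That of Cox7a2 did not, with 0.10. Atp5g2 passed with an ICC of 0.26, and Atp5g3 did not with 0.07.

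The count depended on the arrays and covariates used. Once the 68 arrays rich in thymocyte or squamous markers were left out, 39 strains kept 2 or more arrays (82 arrays), and 16 genes passed, 15 of them among the 39, beside 33.3% of all probe sets. With the differences between the 3′ and 5′ control probe sets of Gapdh and beta-actin as covariates, a measure of how far labelled RNA reached from its 3′ end, 51 passed, of which 36 were among the 39, beside 42.4% of all. With 5 marker scores as covariates the count was 39, with 35 in common.

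The genes moved together in part. Over the 177 arrays, after removing strain means, the 3081 pairs of genes had a median correlation of 0.38, from -0.66 to 0.97, and 616 pairs were negative. These are descriptions over arrays that share a tissue mixture and a normalisation. Pairs from the same complex had a median of 0.45 and pairs from different complexes 0.36. The gene closest to the mean of all others was Ndufc1 (0.86) and the farthest Cox6b2 (-0.04). The closest pair of all came from different complexes: Atp5g1 and Cox6a2, at 0.97.

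A second tight set ran across 4 complexes. It held Ndufs1 and Ndufs4 of complex I, Sdha, the flavoprotein that oxidises succinate, Uqcrb of complex III and Atp5pb, the b subunit of the ATP synthase stator, with pairwise values such as 0.96 for Atp5pb with Ndufs1 and 0.94 for Ndufs1 with Sdha. Against this set stood Ndufaf3, an early assembly factor of complex I, with -0.66 for its pair with Ndufs1, and Cox6b2, with -0.66 for its pair with Atp5pb. The same strains showed both sides. In KK/HlJ the mean of Ndufs1 was 1.47 below the gene's overall mean, a value of -1.47, and that of Ndufaf3 0.63 above. In BTBR T<+> tf/J they were -1.01 and 0.85, and in BALB/cJ -1.02 and 0.84. The 3′ minus 5′ difference of beta-actin on these 6 arrays was 1.06 to 1.45, where the median array had 1.57, and all 6 had a brown adipocyte score below 0, from -2.05 to -0.57. The part of either in the differences between strains was not tested.

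The 3 parental strains of the families were each compared with C57BL/6J, 2 arrays against 3. None of the 79 genes passed at an adjusted p below 0.05 in limma in any of the comparisons. At an unadjusted p below 0.05 there were 2 genes for A/J, 2 for DBA/2J and 20 for C3H/HeJ. Of all probe sets, 0.645% passed for A/J, 0.524% for DBA/2J and 1.25% for C3H/HeJ. The 95% interval of a difference reached a median of 0.39 to either side, so shifts of that size could be missed in single genes. The 3 comparisons share the C57BL/6J arrays, and their values are given side by side only.

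C3H/HeJ had the lower level for 62 of 79 genes, with a median difference of -0.22, where the median of all probe sets was -0.02. For 37 genes both C3H/HeJ arrays lay below all 3 C57BL/6J arrays, which held for 16.0% of all probe sets, and for 3 genes both lay above, beside 13.6%. Ndufs8, a core iron-sulphur subunit of complex I, read 11.13 and 11.11 in C3H/HeJ and 12.07, 12.05 and 11.48 in C57BL/6J. Its difference was -0.75 ± 0.24 (SE, adjusted p = 0.116), the smallest adjusted p among the brightest probe sets. The 2 dimmer Cox7a2l probe sets had smaller values in limma, at -0.68 and -0.58 (adjusted p = 0.0598 and 0.0657). The brightest Cox7a2l probe set differed by only -0.09. Ndufb10 read 10.46 and 10.36 against 10.74 to 11.16 (-0.56 ± 0.19, adjusted p = 0.133). Ndufc1 read 10.74 and 10.49 against 11.26, 11.34 and 10.88 (-0.55 ± 0.19, adjusted p = 0.148). The genes named in these comparisons were chosen after their values were seen. By complex, the median difference was -0.29 for complex I, -0.30 for complex II, -0.29 for complex III, -0.10 for complex IV and -0.15 for the ATP synthase.

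**Figure D2:**
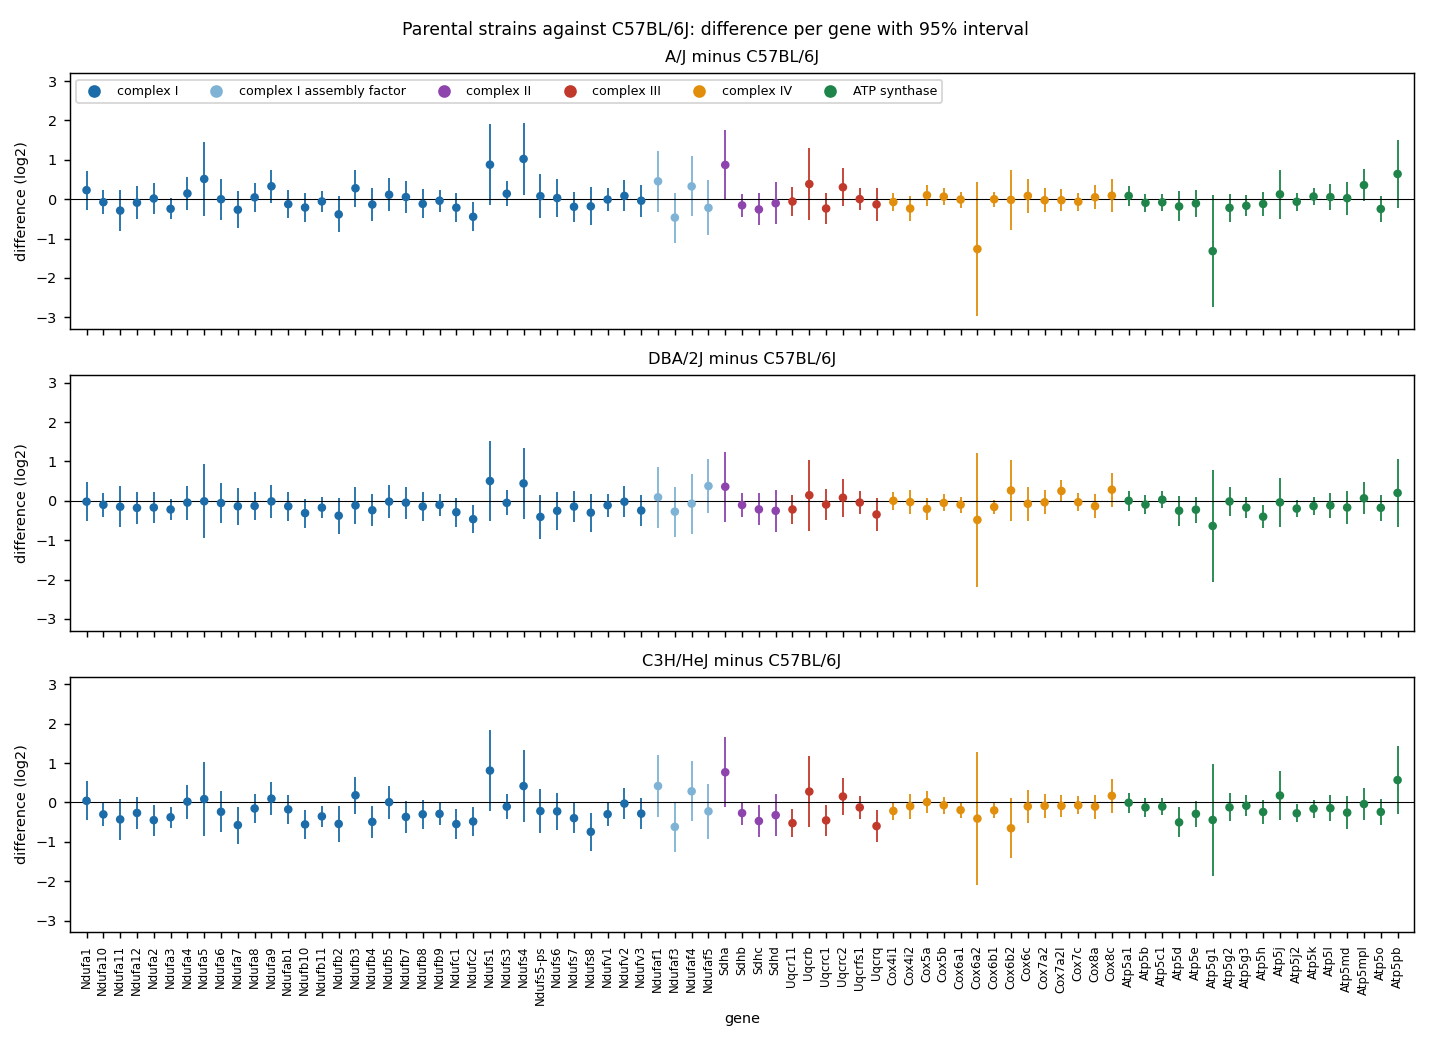
Difference from C57BL/6J (log2, with 95% interval) of each gene in each of the 3 other parents, 2 arrays against 3. No gene passed after adjustment; 62 of 79 points lie below 0 for C3H/HeJ, 64 for DBA/2J and 46 for A/J.

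The C57BL/6J arrays were not alike in these genes. In replicate 3 Ndufs8 was 11.48, and in replicates 1 and 2 it was 12.07 and 12.05. The numbers that title the arrays leave a gap between 1038 and 1067, which the labels do not explain. Replicate 3 lies above it, and all other arrays of the parental strains lie below. The part of this in the spread of the C57BL/6J arrays was not tested. With the side of the gap as a covariate no gene passed for C3H/HeJ, beside 1.2% of all probe sets. Without replicate 3, 8 genes passed, all lower in C3H/HeJ: Ndufs8, Ndufa7, Ndufc1, Ndufb10, Atp5d, Uqcr11, Ndufa3 and Ndufb11, with differences from -0.94 to -0.48. Of all probe sets, 5.03% passed in that fit. With 5 marker scores as covariates 3 passed, beside 4.45% of all probe sets: Ndufs8 (-0.81), Ndufb10 (-0.56) and Ndufc1 (-0.53). With high thymocyte and squamous arrays left out Ndufb10 passed alone (adjusted p = 0.0220), beside 2.55% of all probe sets. The macrophage score was 0.91 and 0.64 on the C3H/HeJ arrays and -0.42, -0.34 and -0.20 on the C57BL/6J arrays, and its part in the difference was not tested.

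A set of genes went the other way. Ndufs1, the largest core subunit of complex I, read 11.03 and 11.02 in C3H/HeJ, 11.08 and 11.10 in A/J, and 10.37 and 11.07 in DBA/2J, and in C57BL/6J it read 10.24, 9.43 and 10.98. Sdha read 10.67, 10.09 and 11.80 in C57BL/6J and 11.58 to 11.75 in C3H/HeJ and A/J. These wide C57BL/6J values gave differences for Ndufs1 of 0.81 ± 0.52 for C3H/HeJ and 0.88 ± 0.52 for A/J, neither past the threshold.

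DBA/2J was lower for 64 genes, by a median of -0.11, with 15 genes wholly below C57BL/6J, beside 6.64% of all probe sets, and 2 wholly above, beside 7.83%. Atp5h, a stator subunit of the ATP synthase, read 11.76 and 11.73 against 12.20, 12.07 and 12.16 (-0.40 ± 0.15, adjusted p = 0.514). A/J had a median difference of -0.03, with 8 genes wholly below (13.5% of all probe sets) and 11 wholly above (12.3%). Ndufc2 was lower in each of the 3 strains, with no array overlapping C57BL/6J: 10.50 and 10.45 in A/J, 10.50 and 10.41 in DBA/2J, and 10.56 and 10.31 in C3H/HeJ. The differences were -0.45, -0.47 and -0.48, each ± 0.18, with adjusted p values of 0.413, 0.621 and 0.205.

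A second probe set of Ndufa12, a complex I accessory subunit singled out after its values were seen, was the only probe set of the 127 that passed in a parental comparison. It read 10.04 and 9.94 in C3H/HeJ and 11.16, 10.93 and 10.83 in C57BL/6J, a difference of -0.98 (adjusted p = 0.0130). It was also lower in A/J by -0.76 (adjusted p = 0.160) and in DBA/2J by -0.88 (adjusted p = 0.0664). The remaining, dim Ndufa12 probe set went the other way in A/J, with 4.87 and 4.24 against 3.60, 3.51 and 3.76 in C57BL/6J (0.93, adjusted p = 0.0936). The brightest Ndufa12 probe set read 10.98 and 10.72 in C3H/HeJ and 11.18, 11.23 and 10.93 in C57BL/6J. Over strain means the 2 probe sets correlated at 0.63, below the median of 0.82 over the 48 second probe sets of 35 genes.

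Inside the families the strain effect was tested without the parents. In AXB/BXA none of the 79 genes passed (8 at an unadjusted p below 0.05), beside 3.81% of all probe sets and 5.85% of those above the median level. In BXH none passed (3 unadjusted), beside 1.26% and 1.93%. In BXD 12 genes passed over 22 strains and 46 arrays. That is 15.2%, beside 15.1% of all probe sets and 24.8% of those above the median level. The counts were not tested against each other, and the families differ in their numbers of strains and arrays.

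The 12 BXD genes were mostly of complex I. Uqcr11 had the largest ICC, 0.60, running from BXD42/TyJ (10.96 and 11.04) to BXD40/TyJ (11.54 and 11.76), and adjusted p = 0.0228. Ndufa3 ran between the same strains, 11.43 and 11.97 (ICC 0.59, adjusted p = 0.0455). Ndufc2 was lowest in BXD33/TyJ (9.54 and 9.90) and highest in BXD40/TyJ (10.78 and 10.73), with an ICC of 0.58 (adjusted p = 0.0119). Cox8a ran from 10.76 in BXD42/TyJ (10.50 and 11.02) to BXD29-Tlr4<lps-2J>/J with 11.71 and 11.49 (ICC 0.56, adjusted p = 0.0234). Ndufa10 ran from 11.31 in BXD42/TyJ to 11.97 in BXD15/TyJ (ICC 0.55, adjusted p = 0.0478).

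The BXD count rested on few strains. BXD42/TyJ was the lowest strain for 7 of the 12 genes, and without it 4 genes passed. Its arrays had the most different skeletal muscle scores of any pair, 4.18 and -3.78, and cardiac scores of -3.34 and -2.89. With the 5 marker scores as covariates 2 genes passed, beside 11.3% of all probe sets. With high thymocyte and squamous arrays left out 2 passed, beside 5.29%, and with the BXD32/TyJ arrays included 4, beside 7.29%. The share of all probe sets was thus lower in these 3 fits too, from 15.1% in the main fit. With the 3′ minus 5′ covariates 22 genes passed, beside 14% of all probe sets. In AXB/BXA the 5 score covariates took the count from 0 to 18, beside 30.4% of all probe sets.

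Between family means, none of the 79 genes passed between AXB/BXA and BXD (4 unadjusted, 2.22% of all probe sets called), AXB/BXA and BXH (3 unadjusted, 0.322%) or BXD and BXH (2 unadjusted, 0.184%). The 95% intervals reached a median of 0.09, 0.13 and 0.13 to either side. The gene nearest the threshold was Ndufaf5, with 6.41 in AXB/BXA and 6.75 in BXD (difference -0.34 ± 0.11, SE, 28 and 27 strains, adjusted p = 0.102). Intervals were much wider for Cox6a2, which averaged 9.87 in AXB/BXA, 9.84 in BXD and 10.37 in BXH. Its difference from BXH was -0.50 ± 0.33 in AXB/BXA and -0.53 ± 0.33 in BXD, and neither passed.

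Arrays of the same strain also differed in marker scores and in the measures of RNA ends. Each gene was fitted in limma on a marker score with strain as a factor, over the same 84 strains and 177 arrays. The slope is the change in log2 level per unit of the score.

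Most of the respiratory chain rose with the brown adipocyte score, made from Ucp1, Cidea, Elovl3 and Dio2. Of the 79 genes 52 rose and 3 fell, beside 20.4% and 19.4% of all probe sets. When only probe sets above the median level were tested, 52 of 76 genes rose, beside 37.9% of those probe sets. The steepest were Ndufs1 at 0.71 ± 0.12 (SE, adjusted p = 4.49e-07), Sdha at 0.70 ± 0.09 (adjusted p = 4.40e-09), Ndufs4 at 0.69 ± 0.10 and Uqcrb at 0.65 ± 0.10. For Sdha, the array with the higher score had the higher level in 61 of 78 strains with 2 arrays. Among the 11 strains whose arrays differed by at least 1 on the score, it did so in 10, by a median of 0.83. In C57L/J, with scores of -1.81 and -0.22, Sdha read 8.89 and 11.64.

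By complex, 25 of 34 complex I genes rose with the brown adipocyte score, 3 of 4 assembly factors, 2 of 4 complex II genes, 5 of 6 complex III genes, 11 of 17 ATP synthase genes and 6 of 14 complex IV genes. The 3 that fell were Atp5g1 at -0.52 ± 0.18 (adjusted p = 0.0172), Cox6b2 at -0.27 ± 0.10 (adjusted p = 0.0203) and Atp5g2 at -0.12 ± 0.05 (adjusted p = 0.0308). For Atp5g2 the array with the higher score had the higher level in 44 of 78 strains, against the sign of its slope. The same fit gave -0.01 ± 0.04 for Atp5g3 (adjusted p = 0.907).

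The genes also moved with measures of RNA. On the 3′ minus 5′ difference of beta-actin 41 genes rose and 3 fell (22.6% and 19.2% of all probe sets), and on that of Gapdh 3 rose and 15 fell (10.2% and 8.48%). With both differences in the fit, 28 genes rose with the brown adipocyte score, all of them among the 52, beside 5.27% of all probe sets, and 1 fell. Without AXB23/PgnJ, 1 gene fell with the score in place of 3. With high thymocyte and squamous arrays left out 32 rose (7.55% of all), all among the 52, and none fell, where 39 strains remained. With 6 marker scores in the same fit 52 rose, 51 in common.

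The white adipocyte score gave 41 rising genes and 1 falling, beside 26.6% and 19.6% of all probe sets. Ndufaf3 rose at 0.59 ± 0.15 and Ndufa7 at 0.50 ± 0.11, and the gene that fell was Atp5j, a coupling factor of the ATP synthase, at -0.39 ± 0.15. With the other scores in the fit none of the 79 passed in either direction, and only 0.282% of all probe sets rose. With the high thymocyte and squamous arrays left out none passed either, and 0.0134% of all probe sets rose. The loss was thus shared by the whole array. The endothelial score gave 42 rising and 10 falling, where 38.3% and 26.6% of all probe sets did. The steepest were Cox6b2 at 0.75 ± 0.14 and Ndufa11 at 0.71 ± 0.08, and Ndufs1 fell at -0.68 ± 0.20. With high thymocyte and squamous arrays left out 18 rose, or 22.8%, near the 18.9% of all probe sets. With the 3′ minus 5′ covariates 44 rose, beside 40.8% of all, and 19 fell. No share of all probe sets is given for these falling genes. No gene passed on the smooth muscle score, on which 6.76% of all probe sets rose and 5.15% fell. At an unadjusted p below 0.05 it gave 2 genes.

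**Figure D3:**
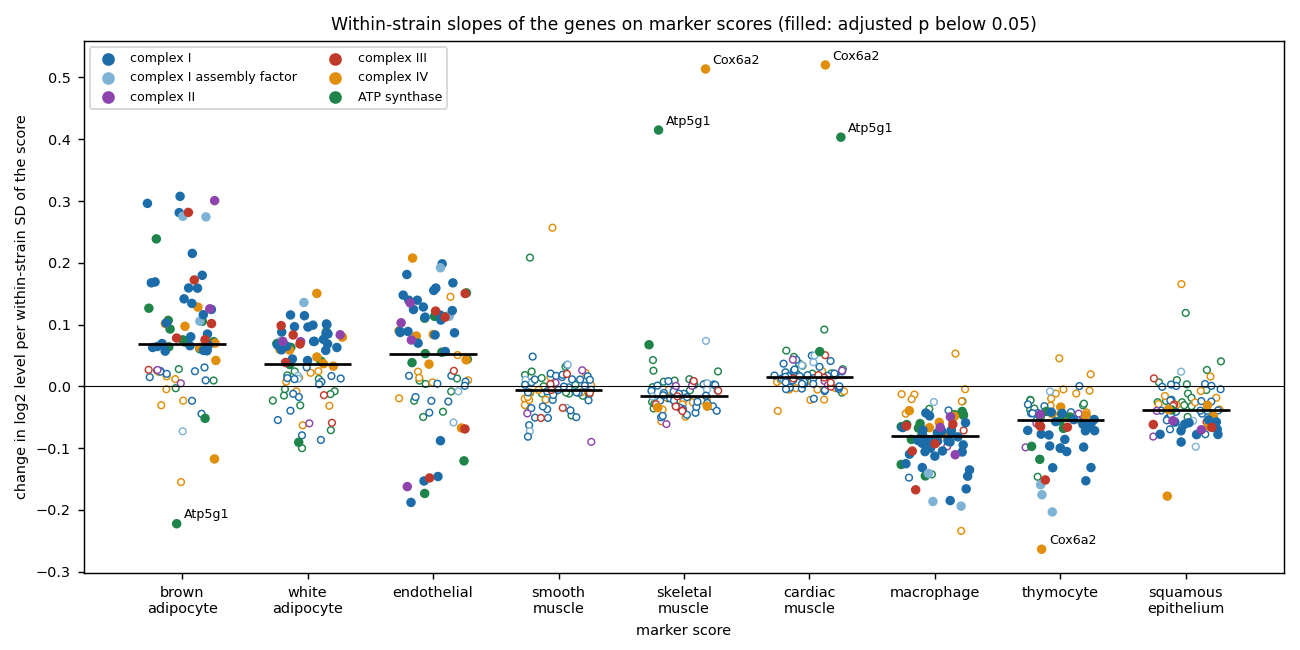
Within-strain slopes of the 79 genes on 9 marker scores, as change in log2 level per within-strain SD of each score; filled points passed limma at an adjusted p below 0.05 and black bars are medians. The medians are 0.07 for brown adipocyte and -0.08 for macrophage, and Cox6a2 and Atp5g1 stand apart at 0.51 and 0.41 on the skeletal muscle score.

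On scores of immune cells and neighbouring organs, added after the data were seen, the genes went down. With the macrophage score 62 of 79 fell and none rose, beside 7.35% and 9.58% of all probe sets. The steepest were Ndufaf5 at -0.54 ± 0.10 (adjusted p = 1.33e-05) and Ndufaf4 at -0.52 ± 0.11 (adjusted p = 0.000222). With the thymocyte score 43 fell and none rose (18.4% and 16.0% of all), led by Cox6a2 at -0.18 ± 0.06 and Ndufaf4 at -0.14 ± 0.03. With the squamous epithelium score 21 fell and none rose (4.0% and 5.29%), led by Cox6b2 at -0.12 ± 0.03 and Ndufs7, a core iron-sulphur subunit, at -0.06 ± 0.01.

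These counts of falling genes shrank with other fits, for which no falling share of all probe sets is given. Whether all probe sets shrank alike was not tested, so the smaller counts are not particular to these genes. With the 3′ minus 5′ covariates, 28 genes fell with the macrophage score and 7 with the thymocyte score. With the high thymocyte and squamous arrays left out, 13 fell with the macrophage score. With 6 other scores as covariates, 30 fell with the macrophage score, 27 with the thymocyte score and 2 with the squamous score. Without BXH9/TyJ, 27 fell with the thymocyte score, and without BXA26/PgnJ 11 with the squamous score.

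On the skeletal muscle score 3 genes rose and 2 fell, beside 4.08% and 0.909% of all probe sets. Both directions together made 6.33% of the genes, beside 4.99% of all probe sets, so the count was near that of the whole array. Cox6a2 rose at 0.21 ± 0.03 (adjusted p = 1.04e-06), Atp5g1 at 0.17 ± 0.03 (adjusted p = 3.82e-06) and Atp5g3 at 0.03 ± 0.01 (adjusted p = 0.000259). The score spans many log2 units, so small slopes add up. In BXD42/TyJ, where the score was 4.18 on replicate 1 and -3.78 on replicate 2, Cox6a2 read 11.91 and 6.71, Atp5g1 11.44 and 6.84, and Atp5g3 12.17 and 11.49. In BXD9/TyJ, with scores of -3.31 and 3.40, Cox6a2 read 10.50 and 11.32 and Atp5g1 9.90 and 10.81. The array richer in skeletal muscle had more Cox6a2 in 60 of 78 strains, more Atp5g1 in 62 and more Atp5g3 in 53.

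The general forms did not follow. Cox6a1 fell at -0.01 ± 0.005 (adjusted p = 0.0490), with the lower level on the muscle-richer array in 50 of 78 strains, and read 12.38 and 12.89 on the BXD42/TyJ arrays. Cox6b1, the subunit at the interface of the complex IV dimer, fell at -0.01 ± 0.004 (adjusted p = 0.0499). Neither passed once high thymocyte and squamous arrays were left out, and the number of falling genes changed between 0 and 4 when single strains were left out. Atp5g2 had a slope of 0.01 ± 0.01 (adjusted p = 0.598), with 43 of 78 strains in that direction. Among the subunit c genes, Atp5g1 had the largest slope.

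**Figure D4:**
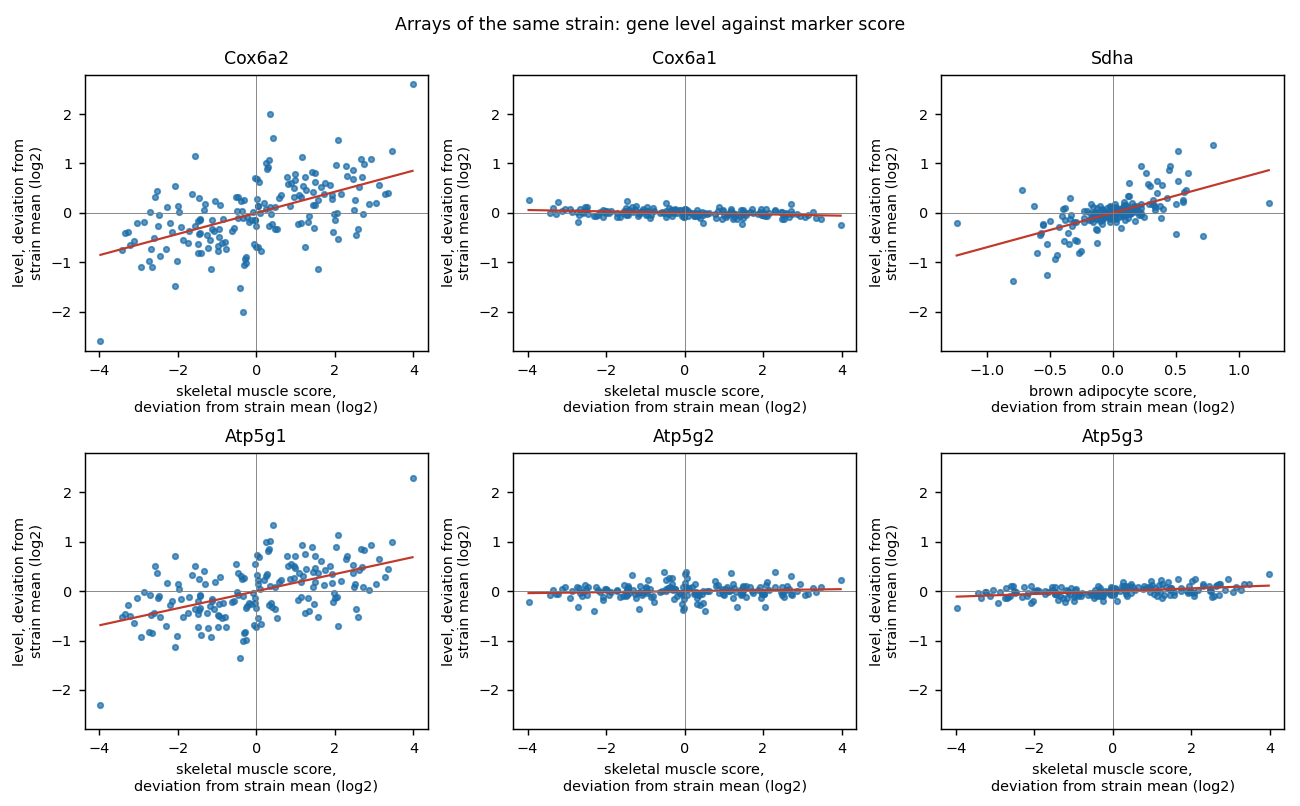
Arrays of the same strain, as deviations from the strain mean (log2; 84 strains, 177 arrays): Cox6a2, Cox6a1 and the 3 subunit c genes against the skeletal muscle score, and Sdha against the brown adipocyte score, with the fitted line through 0. Cox6a2 and Atp5g1 rise along the score, and Atp5g3 by less; the outermost points of the muscle panels are the BXD42/TyJ arrays.

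The cardiac muscle score gave the same 3 genes and none that fell, beside 1.43% and 0.0537% of all probe sets. Cox6a2 rose at 0.54 ± 0.08 (adjusted p = 1.31e-06), Atp5g1 at 0.42 ± 0.07 (adjusted p = 1.95e-05) and Atp5g3 at 0.06 ± 0.01 (adjusted p = 0.0140). Per within-strain SD of the scores, Cox6a2 changed by 0.51 with skeletal and 0.52 with cardiac muscle. When arrays with many thymocyte or squamous markers were left out, 2 of the 3 passed on either score, Cox6a2 and Atp5g1. On the smooth muscle score Cox6a2 had a slope of 0.55 ± 0.20 and did not pass (adjusted p = 0.0585).

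Other genes of mitochondrial energy metabolism were set beside the subunits. Of 16 measured genes of the tricarboxylic acid cycle and pyruvate entry, 9 passed for strain (56.2%, beside 46.5% of all probe sets and 70.0% of those above the median level). With the brown adipocyte score 15 rose and none fell, beside 20.4% and 19.4% of all probe sets, the background for the lists that follow too. Of probe sets above the median level, tested alone, 37.9% rose. Pcx, pyruvate carboxylase, had the largest ICC of these (0.45), and its slope was 0.21 ± 0.07. Of 13 genes of fatty acid oxidation 7 passed for strain, and 11 rose and 1 fell with the score. Cpt2, which reforms acyl-CoA inside the mitochondrion, had an ICC of 0.49 and a slope of 0.34, and Cpt1a, the liver form of the outer membrane transferase, fell at -0.29. Of 22 assembly factors and cytochrome c genes 21 passed for strain, with a median ICC of 0.31. With the score 13 of them rose and 1 fell: Atpif1, the inhibitor of the ATP synthase, at -0.36 ± 0.08, named after its values were seen. Cox18, which inserts a core subunit of complex IV, had an ICC of 0.74 (adjusted p = 1.92e-16), above all 79 subunit genes.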

How the data were processed

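Total RNA from mouse aorta was measured on Affymetrix HT_MG-430A arrays. The deposited log2 values were made by the authors with GCOS and RMA, per the submitters' processing notes; their versions were not given in the sources used. RMA sets all arrays to a common distribution, so array medians lay between 4.55 and 4.88, and a shift shared by most genes cannot be seen. Probe sets were named from the platform annotation: 17783 had 1 symbol, 284 several and 4260 none listed. Groups were the strains in the labels. The labels number no replicates, so replicate numbers follow the order of deposit.

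All tests were run on the whole table of 22327 probe sets with limma 3.58.1 in R 4.3.3 and Benjamini-Hochberg adjustment, at an adjusted p below 0.05: an F test over strains, contrasts between strains or families, and slopes on marker scores with strain as a factor. ICC came from one-way variance components. The 2 BXD32/TyJ arrays were left out because their description carries a suffix that the labels do not explain. The F test over strains, the A/J contrast and the slopes were tried on simulated data with planted effects. The contrasts between families were not. Figures used Python 3.11.15 with matplotlib 3.10.9.

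Genes named are the 12 with the largest and 4 with the smallest ICC, the isoform pairs, the 5 largest in a family, and up to 4 slopes in each direction; others are marked. The genes and lists were chosen with earlier results of these data known. Alternatives left out arrays or strains, added covariates, normalised again, or restricted probe sets. Those on RNA ends, and the thymocyte, squamous epithelium and macrophage scores, were added after seeing the data.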

Additional observations from a re-analysis of the deposited data

Results flagged for a closer look

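Of 156 checks for a single value far from the rest of its group (the 39 genes named or shown in groups of 4 arrays and among the 10 BXH strain means), 17 found one, or 10.9%. Most of the 17 were among the BXH strain means, while most of the checks were of groups of 4 arrays. Chance gives such a value in about 1 in 20 groups, and the checks are not independent, since the genes move together.

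Among the BXH strain means, BXH2/TyJ stood below the other 9 strains for 9 genes. It read 9.89 for Ndufs1 (others 10.66 to 11.12), 8.99 for Ndufs4 (9.86 to 10.44), 9.71 for Ndufa5 (10.42 to 11.22), 11.35 for Ndufa4 (11.77 to 12.07) and 6.61 for the assembly factor Ndufaf1 (7.15 to 7.72). It also read 10.65 for Sdha (11.45 to 11.85), 9.45 for Uqcrb (10.11 to 10.80), 10.10 for Atp5pb (10.77 to 11.31) and 10.43 for Atp5md (10.77 to 11.04). These means rested on replicate 1. For Sdha the arrays read 9.84 and 11.46, for Ndufs1 8.88 and 10.90, and for Atp5pb 9.18 and 11.02. Replicate 2 lay within the range of the other strains' means for 8 of the 9 genes, and below it for Ndufaf1 at 6.98. The beta-actin 3′ minus 5′ difference was 0.93 on replicate 1 and 1.76 on replicate 2, and its part in this was not tested.

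BXH9/TyJ stood below the other BXH strains for Ndufa8 at 10.56 (10.91 to 11.17), Ndufv3 at 10.94 (11.24 to 11.44) and Uqcr11 at 10.89 (11.23 to 11.45). These means also rested on replicate 1, with 10.13 against 10.99 on replicate 2 for Ndufa8, 10.57 against 11.32 for Ndufv3 and 10.54 against 11.24 for Uqcr11. Replicate 2 lay within the range of the other strains for all 3. The thymocyte score was 4.61 on replicate 1 and -0.51 on replicate 2, and its part was not tested.

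Within strains of 4 arrays, replicate 3 of BXH4/TyJ was low for Atp5pb at 11.19 (others 11.30 to 11.31). It was also low for Cox6b1 at 12.47 (12.49 on the others), a very narrow gap. Replicate 3 of BXD19/TyJ was low for Ndufa11 at 10.48 (10.76 to 10.81). Replicate 1 of AXB19b/PgnJ was low for Ndufa5 at 10.62 (11.06 to 11.11) and for Ndufb8 at 10.65 (11.14 to 11.15). Such values were few among the many checks of groups of 4 arrays, near the rate that chance gives.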

How the results depend on the processing

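Counts are of the 79 genes. No paired analysis was possible because the labels give no replicate numbers shared between strains. Of 233 recomputed counts 182 stayed within 1.5 times the reported one and 51 did not; of 449 recomputed values for named genes 377 kept direction and side of the threshold, 62 lost it, 5 gained it and 5 changed sign.

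Once the 68 arrays rich in thymocyte or squamous markers were left out, 16 genes passed for strain, 2 inside BXD and 1 for C3H/HeJ; slopes gave 32 rising and 0 falling for brown adipocyte, 0 and 0 for white adipocyte, 0 falling for skeletal muscle, 1 falling for smooth muscle, 18 rising for endothelial and 13 falling for macrophage. Fewer arrays and strains entered these fits. Of all probe sets 0.0134% rose with white adipocyte and 18.9% with endothelial. With 5 scores as covariates the counts were 18 inside AXB/BXA, 2 inside BXD, 3 for C3H/HeJ, 1 for AXB/BXA against BXD (Cox7a2l) and 1 for AXB/BXA against BXH (Atp5mpl). BXD32/TyJ included gave 4 inside BXD. Any probe set of a gene gave 1 for C3H/HeJ.

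With the 3′ minus 5′ covariates, 22 passed inside BXD, 28 rose and 1 fell with brown adipocyte, 12 fell with white adipocyte, 0 with skeletal muscle, 2 with smooth muscle, 19 with endothelial, 7 with thymocyte and 28 with macrophage. Slopes changed sign for Ndufaf1 on thymocyte (0.0071), and for Ndufa5 (0.034) and Uqcrb (0.049) on macrophage. With all 6 scores in 1 fit, 6 fell with brown adipocyte, 0 rose and 0 fell with white adipocyte, where Ndufa11 turned to -0.016, and 5 rose and 0 fell with skeletal muscle. With 6 other scores as covariates, 3 rose and 27 fell with thymocyte, where Cox6a2 turned to 0.025, 2 fell with squamous epithelium and 30 with macrophage. A repeated quantile normalization gave 2 falling with white adipocyte. Probe sets above the median level alone gave 0 falling with skeletal and 1 rising with smooth muscle. Unless a construction is named, the cause was not tested.

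Leaving out 1 strain at a time gave 24 to 42 genes for strain, 0 to 1 inside AXB/BXA and 4 to 17 inside BXD. The falling counts ran from 1 to 4 for brown adipocyte, 0 to 2 for white adipocyte, 0 to 4 for skeletal muscle, 27 to 51 for thymocyte and 11 to 25 for squamous epithelium, and rising ones from 0 to 2 for smooth muscle. Leaving out C57BL/6J or C3H/HeJ arrays in turn gave 0 to 8 for C3H/HeJ. With 2 arrays in most strains, shifts smaller than the intervals given could not be detected.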

Other observations

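Genes that make and control mitochondria varied with strain too. Of 70 measured genes of the mitochondrial ribosome, which translates the subunits encoded in mitochondrial DNA, 61 passed limma's F test for strain, with a median ICC of 0.32. That is 87.1%, beside 46.5% of all probe sets and 70.0% of those above the median level. Mrpl3 had an ICC of 0.64, Mrpl30 0.52 and Mrps14 0.52. With the brown adipocyte score 33 rose and 2 fell, so the share that rose was 47.1%, beside 20.4% of all probe sets. Of probe sets above the median level, tested alone, 37.9% rose. With the endothelial score 45 rose and 11 fell, beside 38.3% and 26.6% of all.

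Of 13 regulators of mitochondrial biogenesis 11 passed for strain, or 84.6%, beside the same background. Ppara, a nuclear receptor of fatty acid metabolism, had an ICC of 0.55, Tfb1m, which modifies mitochondrial ribosomal RNA, 0.49 and the coactivator Ppargc1b 0.41. With the brown adipocyte score 7 rose and 2 fell, among them Ppara at 0.64 ± 0.08 and Ppargc1b at 0.63 ± 0.08 (SE). With the endothelial score 7 rose and 6 fell. Of 6 carriers and channels 2 passed for strain, 4 rose with the brown adipocyte score and 3 rose with the skeletal muscle score: Vdac1, Slc25a4 and Slc25a3.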
